A study of Mus musculus with 48 samples.

Results

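Tissue that borders the brain parenchyma can enter a dissected sample in variable amounts, and 36 genes that mark such tissue are described here across cortex, striatum and cerebellum of 16p11.2 deletion and wild-type mice. They were found by symbol among the 47069 genes of the deposited count table, and each symbol matched 1 Ensembl identifier. The list holds 18 genes of the choroid plexus epithelium, 3 genes shared by choroid plexus and meninges, 5 genes of the ependyma and 10 genes of the meninges. All 36 had reads in each of the 3 tissues.

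The choroid plexus is a folded sheet of secretory epithelium that lies in the lateral, the third and the fourth ventricles and produces cerebrospinal fluid. Its epithelium releases transthyretin, moves ions and water, and takes up folate and other solutes. The ependyma is the ciliated cell layer that lines the ventricle walls, where beating cilia move the fluid. The meninges are fibroblast-rich membranes that wrap the brain surface and follow vessels inwards. None of these belongs to the neural parenchyma, and in bulk RNA from a dissected block fewer cells of a type and less RNA per cell cannot be told apart.

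The deletion group consisted of 8 mice labelled as 16p11.2 deletion, in which the syntenic interval at mouse band 7qF3 was removed, and the wild-type group of 8 mice. Both groups had 4 males and 4 females of the strain C57BL/6N:129Sv, and no drug treatment or age is given in the labels. Each of the 16 mice gave 1 library from each of 3 tissues, so that 48 poly(A)-selected stranded libraries formed 6 groups of 8. The field named age holds a date that divides the mice exactly as sex does, and sex and that date cannot be told apart. Libraries are named below by genotype (D, deletion; W, wild type) and animal number; D801 to D804 and W805 to W808 were males, and D809 to D812 and W813 to W816 females.

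Gene counts per library ranged from 29244745 to 60751792, and all but 1 library held at most 36507597. CPM is the count of a gene scaled to a common library size after normalization of all 48 libraries. As a check of the labels, 8 genes of the deleted interval were read out, and their deletion median was between 0.399 and 0.618 of the wild-type median in every tissue. The kinase gene Taok2, for example, lay at 76.5 to 84.9 CPM in deletion striatum, against 156 to 188 CPM in wild-type striatum. Taok2 was 1 of 3 genes whose deletion libraries all lay below the wild-type ones in every tissue. The others overlapped in at least 1 tissue, as Mapk3 did in cortex (deletion up to 193 CPM, wild type from 121 CPM). For 11 of the 36 genes (Folr1, Kcnj13, Clic6, Otx2, Igf2, Rarres2, Enpp2, Calml4, F5, Tmem212 and Col1a2) the annotation places another gene on part of the same sequence, and the strand setting of the counting is not given in the sources used here. Their values may include reads of the overlapping gene.

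Individual libraries stood apart before genotype was considered. In wild-type animal W813, the summed level of the 18 choroid plexus genes was 7971 CPM in cortex, 2393 CPM in striatum and 16972 CPM in cerebellum. In wild-type animal W816 it was 8133 CPM in striatum. The dissected striatal blocks also differed in which neurons they held. The summed level of 12 thalamic neuron markers was above that of 12 striatal neuron markers in D804, D810, W805, W807, W813 and W815, although all were labelled striatum. Among the 16 striatum libraries, W813 had the lowest striatal sum, at 335 CPM, and the highest sum of 10 hippocampal neuron markers, at 990 CPM. Fits without these libraries stand beside the comparisons they touch.

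Choroid plexus genes were among the genes that varied most between libraries of 1 tissue. The median standard deviation (SD) of log2 CPM over the 16 libraries of a tissue was 1.81 for the choroid plexus genes in cortex, 1.55 in striatum and 1.85 in cerebellum. The corresponding medians over all genes with a mean of at least 1 CPM were 0.314, 0.360 and 0.341. Of the choroid plexus genes that reached this level, 11 of 17 in cortex, 6 of 17 in striatum and 9 of 18 in cerebellum fell in the most variable 1% of genes. The ependymal genes had a median percentile of 92.3 in cortex, 92.3 in striatum and 97.5 in cerebellum, and the meningeal genes of 91.0, 84.7 and 74.6. The spread of the choroid plexus genes thus exceeded that of the meningeal genes in all 3 tissues.

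Summed levels show how this spread fell on the libraries. In cortex the choroid plexus sum was 184 CPM (D809), 242 CPM (median) and 1574 CPM (D802) in deletion mice, against 187 CPM (W808), 295 CPM and 7971 CPM (W813) in wild-type mice. In striatum it was 207 CPM (D802), 278 CPM and 348 CPM (D810) in deletion mice, against 247 CPM (W807), 305 CPM and 8133 CPM (W816) in wild-type mice. In cerebellum it was 225 CPM (D802), 3340 CPM and 7494 CPM (D804) in deletion mice, against 175 CPM (W806), 1663 CPM and 16972 CPM (W813) in wild-type mice. The groups overlapped in each tissue, high libraries were the exception in cortex and striatum, and in cerebellum they were common in both genotypes. In libraries with little Ttr the largest part of the sum was Enpp2, which oligodendrocytes also express. In D802 striatum Enpp2 had 4645 counts and Ttr 72, and in W808 cortex they had 5522 and 355. The low sums, and the medians in cortex and striatum, are therefore no measure of choroid plexus alone.

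**Figure D1:**
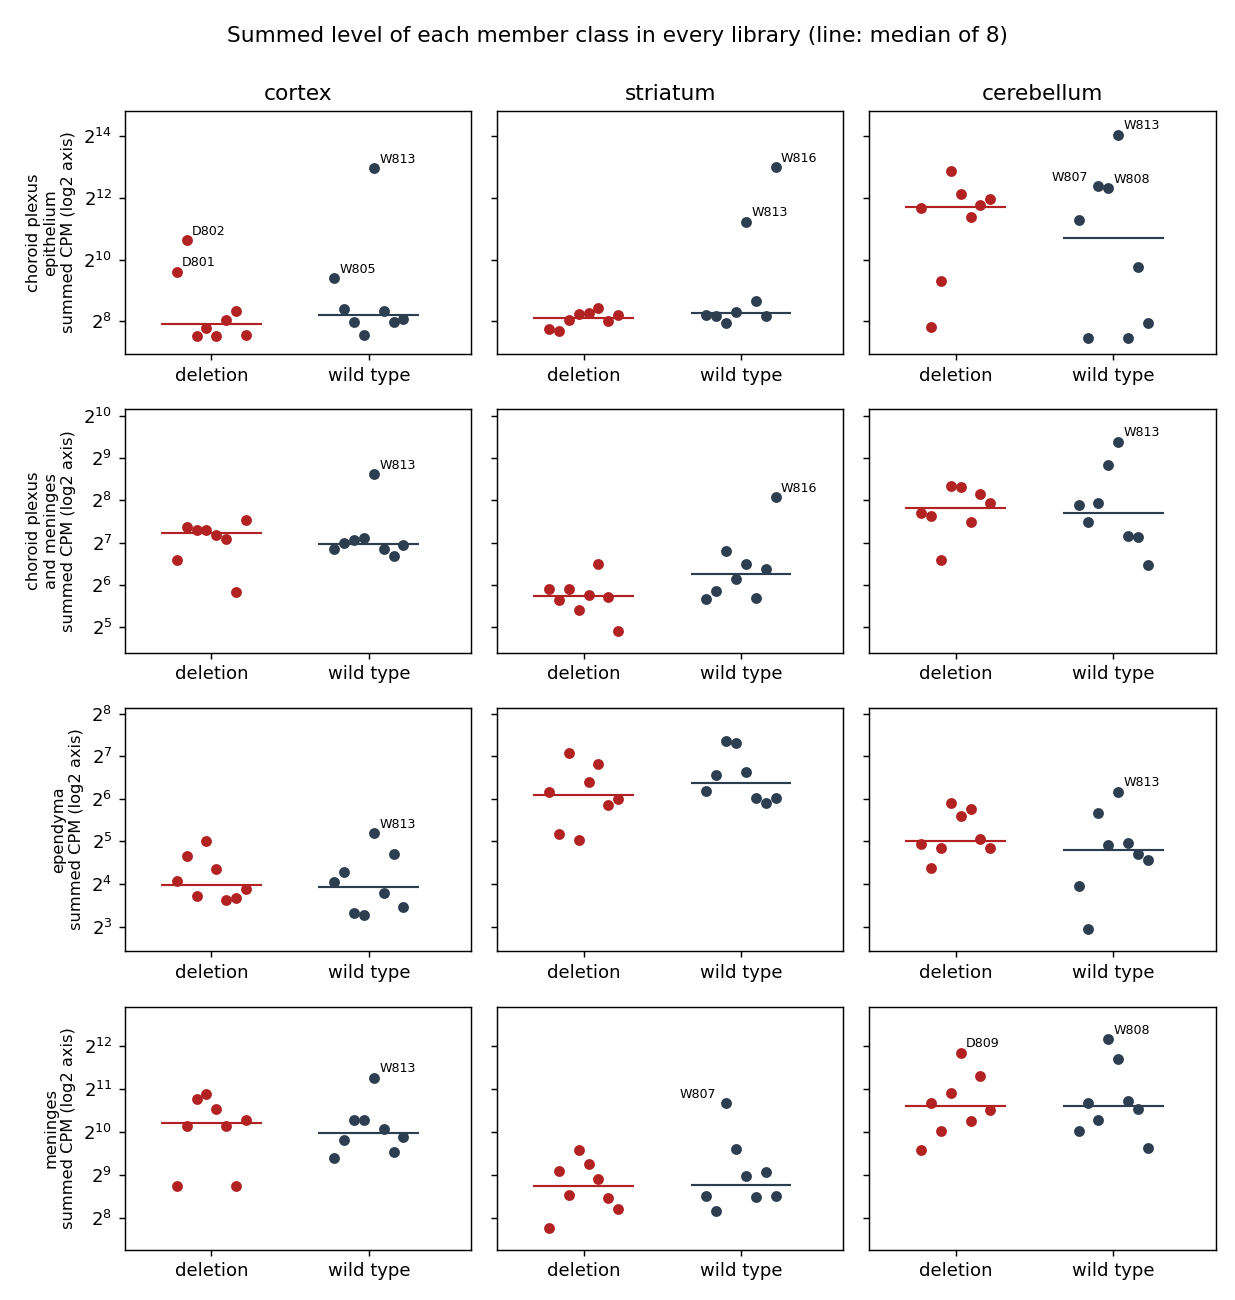
Summed CPM (log axis) of the choroid plexus, shared, ependymal and meningeal genes in each library of cortex, striatum and cerebellum, deletion left of wild type, with 1 point per library and a line at the group median. In cortex the choroid plexus sum of W813 (7971 CPM) and in striatum that of W816 (8133 CPM) and W813 (2393 CPM) lie far above all other libraries.

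Ttr (chr18:20665280-20674321 in GRCm38), which encodes the thyroxine carrier transthyretin, had the highest mean level of the choroid plexus genes per kilobase of exon, with 2159 CPM per kb in cerebellum, 432 in cortex and 342 in striatum. The median library had 1476 CPM per kb in cerebellum, 21.7 in cortex and 14.5 in striatum, so the means in cortex and striatum were carried by few libraries. By the median library Enpp2 was above Ttr in cortex (41.6 CPM per kb) and striatum (34.6), and below it in cerebellum (140). In cortex Ttr had 3.66 CPM (D811), 16.1 CPM (median) and 1047 CPM (D802) in deletion mice, against 7.75 CPM (W807), 28.9 CPM and 6313 CPM (W813) in wild-type mice. The second highest libraries had 332 CPM (D801) and 307 CPM (W805), and each genotype therefore had 2 of 8 cortex libraries at 100 CPM or more.

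In striatum both libraries at 100 CPM of Ttr or more were wild type. Its level was 2.14 CPM (D802), 14.4 CPM (median) and 39.5 CPM (D809) in deletion striatum, against 4.97 CPM (W805), 36.7 CPM, 1726 CPM (W813) and 4492 CPM (W816) in wild-type striatum. The other wild-type libraries overlapped the deletion libraries. In cerebellum the level was 8.92 CPM (D802), 2118 CPM and 5789 CPM (D804) in deletion mice, against 10.1 CPM (W814), 891 CPM and 13464 CPM (W813) in wild-type mice. At or above 100 CPM were 7 of 8 deletion and 5 of 8 wild-type cerebella, and at or above 1000 CPM were 6 deletion and 4 wild-type cerebella.

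Enpp2, which encodes autotaxin, a secreted enzyme that makes lysophosphatidic acid and that oligodendrocytes also express, had a floor well above 0 in every library. In striatum it measured 138 CPM (D802), 180 CPM (median) and 244 CPM (D810) in deletion mice, against 170 CPM (W807), 212 CPM, 514 CPM (W813) and 2764 CPM (W816) in wild-type mice. In cortex it measured 129 CPM (D812), 202 CPM and 441 CPM (D802) in deletion mice, against 166 CPM (W808), 258 CPM and 1291 CPM (W813) in wild-type mice. In cerebellum it measured 184 CPM (D802), 861 CPM and 1351 CPM (D804) in deletion mice, against 102 CPM (W806), 590 CPM and 2812 CPM (W813) in wild-type mice. The groups overlapped in all 3 tissues, and the highest library of each tissue was also the one highest in Ttr.

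Kl encodes klotho, a co-receptor for the hormone FGF23 that is also shed from the epithelium. Its level in striatum was 2.11 CPM (D810), 4.57 CPM (median) and 9.06 CPM (D812) in deletion mice, against 2.71 CPM (W808), 4.84 CPM, 28.9 CPM (W813) and 190 CPM (W816) in wild-type mice. In cortex it ranged from 1.33 CPM (D803) over a median of 3.20 CPM to 17.6 CPM (D801) in deletion mice, against 1.41 CPM (W807), 2.98 CPM and 58.1 CPM (W813) in wild-type mice. In cerebellum it ranged from 2.84 CPM (D802) over 28.8 CPM to 60.0 CPM (D801) in deletion mice, against 1.48 CPM (W814), 19.6 CPM and 99.5 CPM (W813) in wild-type mice. The medians of both genotypes were close in cortex and striatum.

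Clic6, a chloride channel family member, and Prlr, the prolactin receptor, were found at 2.30 CPM or more in every striatum library. Clic6 had 22.3 CPM (D804), 27.5 CPM (median) and 47.4 CPM (D812) in deletion striatum, against 14.0 CPM (W814), 29.5 CPM and 124 CPM (W816) in wild-type striatum. Prlr had 2.30 CPM (D811), 14.3 CPM and 49.5 CPM (D812) in deletion striatum, against 6.44 CPM (W808), 11.0 CPM and 94.8 CPM (W816) in wild-type striatum. D812 was thus among the high striatum libraries for both, although its striatal Ttr was 14.1 CPM. In cortex, Clic6 medians were 7.84 CPM in deletion and 7.58 CPM in wild-type mice, and Prlr medians were 1.73 CPM in deletion and 1.50 CPM in wild-type mice. In cerebellum, Clic6 medians were 33.3 CPM in deletion and 22.3 CPM in wild-type mice, and Prlr medians were 7.62 CPM in deletion and 3.70 CPM in wild-type mice. Both genes are also transcribed in neurons of some brain regions, as background.

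Otx2, a homeobox factor that choroid plexus epithelium needs for its identity, was nearly absent from most cortex libraries, with 0.0357 CPM (D809), 0.237 CPM (median) and 3.63 CPM (D802) in deletion mice, against 0.0901 CPM (W808), 0.280 CPM and 9.11 CPM (W813) in wild-type mice. In striatum it had 2.15 CPM (D804), 6.47 CPM and 12.8 CPM (D810) in deletion mice, against 2.05 CPM (W807), 6.58 CPM and 19.6 CPM (W816) in wild-type mice. In cerebellum it had 6.37 CPM (D809), 17.3 CPM and 27.1 CPM (D810) in deletion mice, against 10.5 CPM (W815), 16.1 CPM and 30.0 CPM (W813) in wild-type mice. Otx2 was thus found at several CPM in cerebella with little Ttr, such as W814, which had 19.2 CPM of Otx2 and 10.1 CPM of Ttr. The groups overlapped throughout.

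The other 12 choroid plexus genes encode, among others, the folate receptor Folr1, the water channel Aqp1, the potassium channel subunits Kcne2 and Kcnj13, the bicarbonate transporter Slc4a5, the tight-junction protein Cldn2 and coagulation factor F5. All 18 choroid plexus genes had their highest cortex level in W813 and their highest striatum level in W816. In cerebellum 17 of 18 had their highest level in W813, the exception being Prlr with its maximum in D801. Aqp1 (chr6:55336432-55348555) is an example of low levels outside those libraries, with 0.254 CPM (D803), 0.592 CPM (median) and 1.02 CPM (D810) in deletion striatum, against 0.740 CPM (W814), 0.959 CPM, 7.30 CPM (W813) and 30.5 CPM (W816) in wild-type striatum. Folr1 had 0.208 CPM (D802), 0.950 CPM and 2.20 CPM (D810) in deletion striatum, against 1.05 CPM (W805), 1.58 CPM, 11.1 CPM (W813) and 31.1 CPM (W816) in wild-type striatum. For both genes the groups overlapped.

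**Figure D2:**
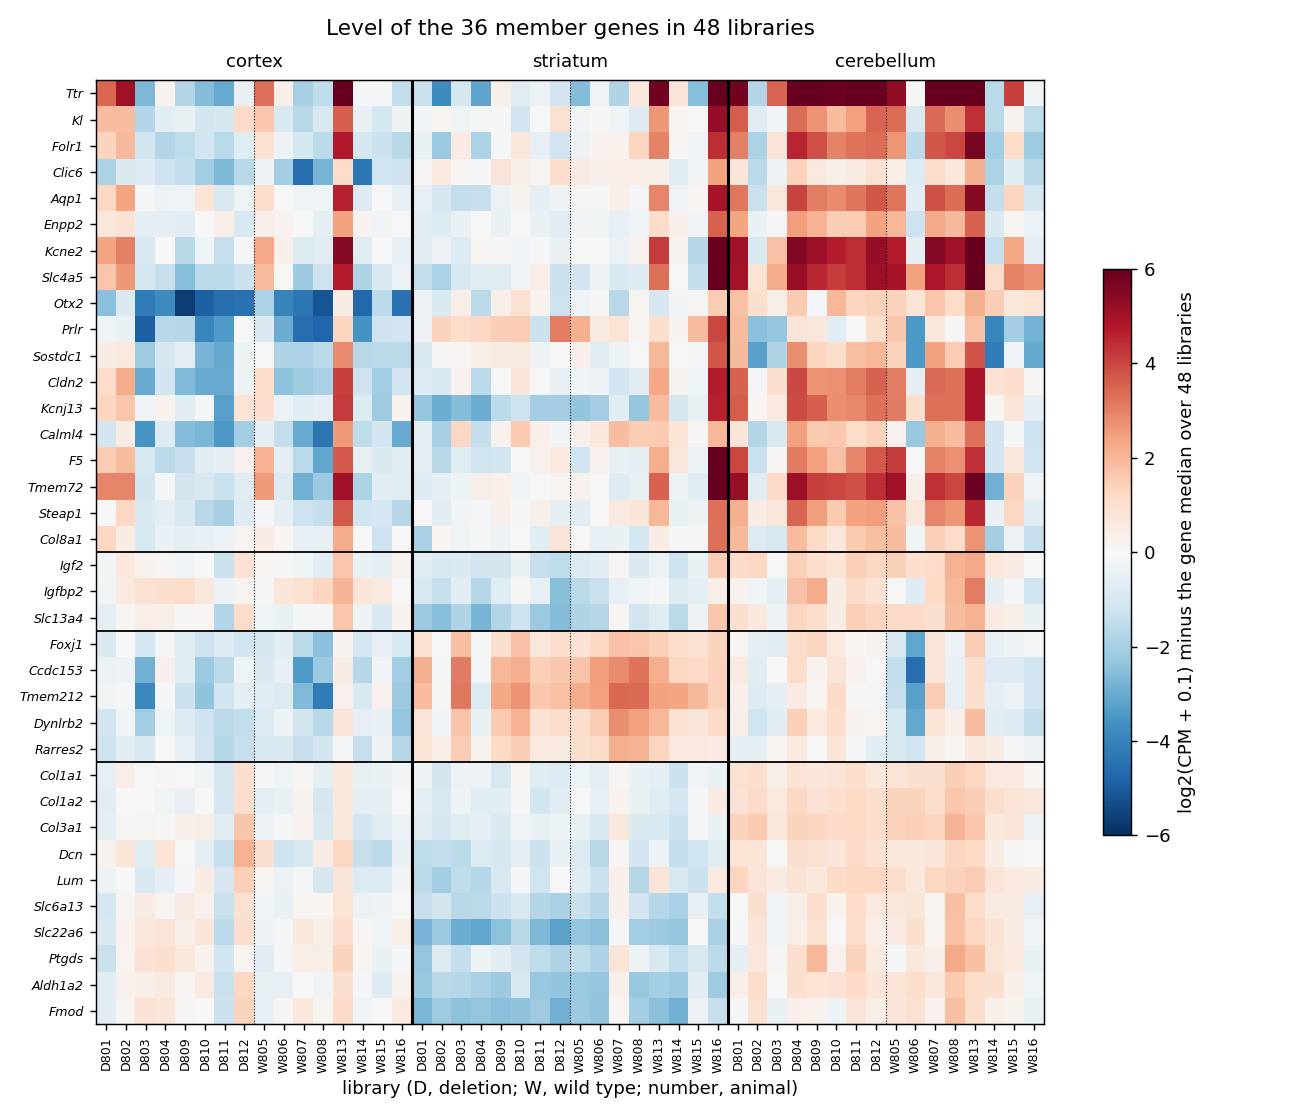
Log2 level of each of the 36 genes (rows, by gene group) in each of the 48 libraries (columns, by tissue, deletion left of wild type), as the difference from the gene's median over all libraries, red above and blue below it. The choroid plexus rows are red together in W813 cortex and W816 striatum, and the ependymal rows are redder in striatum than in cortex.

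Libraries rich in Ttr did not carry the other choroid plexus genes in 1 ratio. In the 14 libraries with at least 1000 CPM of Ttr, Folr1 had between 4.92 and 7.00 CPM per 1000 CPM of Ttr, a 1.42-fold range. The range was 1.69-fold for Steap1, a metalloreductase family member, 3.82-fold for Enpp2 and 5.71-fold for Kl. It was 10.8-fold for F5 and 14.5-fold for Prlr. The same 3 libraries had the most Kl, F5 and Prlr for their Ttr, namely striatum of W816 and cerebellum of W805 and D801. Kl reached 42.2 CPM per 1000 CPM of Ttr in W816 striatum, 40.3 in W805 cerebellum and 35.5 in D801 cerebellum, against a median of 11.8 over the 14 libraries. F5 stood at 21.9, 19.9 and 12.8 in these libraries (median 3.14) and Prlr at 21.1, 14.9 and 12.5 (median 2.68). These 3 libraries come from both genotypes. The ratios are a description, and genes with other sources in the tissue, such as Enpp2, add reads that do not come from choroid plexus.

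**Figure D3:**
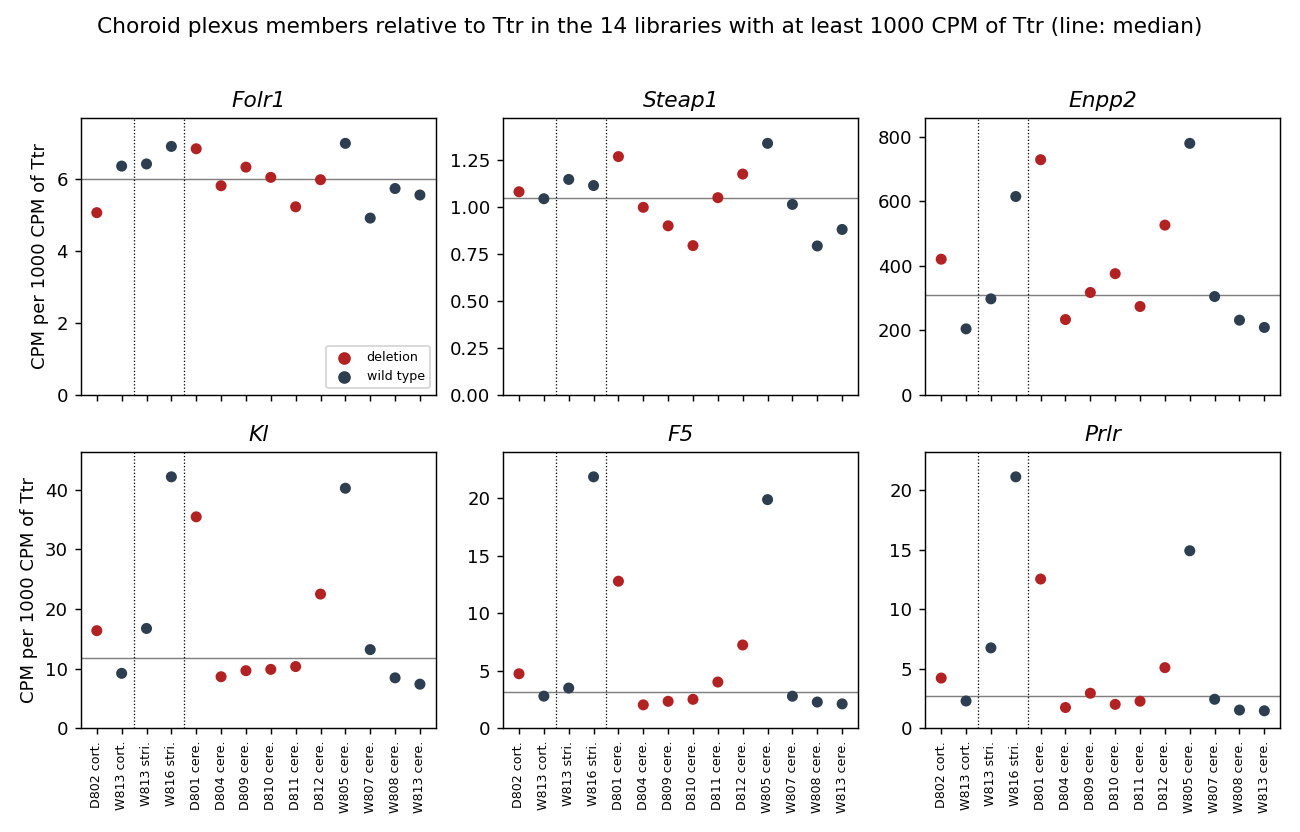
CPM per 1000 CPM of Ttr (linear axes from 0) of Folr1, Steap1, Enpp2, Kl, F5 and Prlr in the 14 libraries with at least 1000 CPM of Ttr, with 1 point per library, coloured by genotype, and a line at the median. Folr1 keeps within 4.92 to 7.00, whereas Kl, F5 and Prlr have their highest ratios in W816 striatum, W805 cerebellum and D801 cerebellum.

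The 3 genes shared by choroid plexus and meninges were the growth factor gene Igf2, its binding protein gene Igfbp2 and the sulfate transporter gene Slc13a4. Each had its highest level in W813 in cortex and cerebellum and in W816 in striatum. In striatum Igf2 had 22.2 CPM (D812), 32.1 CPM (median) and 48.4 CPM (D810) in deletion mice, against 27.3 CPM (W814), 44.7 CPM and 184 CPM (W816) in wild-type mice. Slc13a4 (chr6:35267957-35308131) had 1.75 CPM (D804), 2.71 CPM and 5.39 CPM (D810) in deletion striatum, against 3.57 CPM (W805), 6.87 CPM, 13.3 CPM (W807) and 40.1 CPM (W816) in wild-type striatum. The Slc13a4 groups overlapped only in part, as the wild-type median lay above the highest deletion library. Igfbp2 had 5.89 CPM (D812), 19.4 CPM and 36.5 CPM (D810) in deletion striatum, against 11.5 CPM (W805), 24.2 CPM and 44.4 CPM (W816) in wild-type striatum, with wide overlap.

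In cortex Igf2 had 25.4 CPM (D811), 67.7 CPM (median) and 118 CPM (D812) in deletion mice, against 41.0 CPM (W808), 56.3 CPM and 203 CPM (W813) in wild-type mice. Cortical Igfbp2 had 27.7 CPM (D811), 54.8 CPM and 75.5 CPM (D809) in deletion mice, against 33.0 CPM (W805), 58.6 CPM and 146 CPM (W813) in wild-type mice. Cortical Slc13a4 had 3.73 CPM (D811), 14.4 CPM and 28.1 CPM (D812) in deletion mice, against 6.88 CPM (W815), 11.3 CPM and 41.4 CPM (W813) in wild-type mice. D811 was the lowest cortex library for all 3 genes. In cerebellum the medians were 145 CPM in deletion and 134 CPM in wild-type mice for Igf2, 56.1 CPM in deletion and 33.9 CPM in wild-type mice for Igfbp2, and 25.7 CPM in deletion and 26.7 CPM in wild-type mice for Slc13a4.

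The ependymal genes were the transcription factor gene Foxj1, which switches on the programme of motile cilia, the ciliary genes Ccdc153 and Dynlrb2 (a dynein light chain), the membrane protein gene Tmem212, and Rarres2, which encodes the secreted protein chemerin. Because these 5 genes were higher in striatum than in both other tissues, promoters are shown for the 3 held in the RefSeq-based promoter set (GRCm38.p6) used here. They run from 250 bases before to 50 bases after the gene start, on the gene's strand. The capitals mark GTTGCC, a partial binding site of the RFX factors that act in ciliary promoters, searched on both strands. The windows are chr9:44240427-44240726 (+) for Ccdc153, chr8:116504765-116505064 (+) for Dynlrb2 and chr3:27896319-27896618 (-) for Tmem212.
Ccdc153: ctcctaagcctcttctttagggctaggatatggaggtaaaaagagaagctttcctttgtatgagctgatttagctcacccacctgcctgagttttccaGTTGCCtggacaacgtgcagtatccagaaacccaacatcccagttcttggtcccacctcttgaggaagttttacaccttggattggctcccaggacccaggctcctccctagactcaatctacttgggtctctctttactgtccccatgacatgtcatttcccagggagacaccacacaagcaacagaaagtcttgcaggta
Dynlrb2: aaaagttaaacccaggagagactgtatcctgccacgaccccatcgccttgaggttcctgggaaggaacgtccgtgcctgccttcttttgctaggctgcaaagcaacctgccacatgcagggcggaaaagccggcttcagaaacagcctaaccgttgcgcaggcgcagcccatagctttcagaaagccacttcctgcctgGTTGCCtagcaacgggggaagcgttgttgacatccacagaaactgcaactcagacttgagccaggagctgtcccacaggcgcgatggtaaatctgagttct
Tmem212: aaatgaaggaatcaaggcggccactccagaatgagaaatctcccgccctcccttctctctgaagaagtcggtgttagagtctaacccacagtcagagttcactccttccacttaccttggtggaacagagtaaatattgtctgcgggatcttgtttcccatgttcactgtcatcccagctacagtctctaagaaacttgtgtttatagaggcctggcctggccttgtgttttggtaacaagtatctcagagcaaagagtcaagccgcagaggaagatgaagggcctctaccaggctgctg
This motif lies in 2 of these 3 windows, and 12.5% of the 32851 RefSeq promoters of this length hold it. It also lies in 5 of 19 promoters of choroid plexus genes (of Aqp1, Kcne2, Otx2 and Steap1), in 1 of 9 of meningeal genes and in 0 of 7 of the shared genes. The Otx2 windows chr14:48667459-48667758 and chr14:48667595-48667894 overlap, and the same site is counted in both. The Tmem212 window has no match, which says only that these letters are not in it. TAATCC, the core bound by OTX factors, was searched in the 19 promoters of the 13 choroid plexus genes held in this promoter set. It was found in 1, that of Otx2, against 7.06% of all promoters. It was found in 2 of 9 meningeal promoters (Slc22a6 and Slc6a13), in 1 of 7 promoters of the shared genes (Igf2) and in 0 of the 3 ependymal ones.

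Foxj1 (chr11:116330704-116335399) had 9.46 CPM (D804), 18.9 CPM (median) and 34.2 CPM (D803) in deletion striatum, against 18.1 CPM (W805), 24.0 CPM and 33.8 CPM (W807) in wild-type striatum. Ccdc153 had 3.41 CPM (D802), 13.6 CPM and 33.9 CPM (D803) in deletion striatum, against 8.42 CPM (W815), 15.1 CPM and 36.7 CPM (W808) in wild-type striatum. Rarres2 had 16.8 CPM (D804), 23.3 CPM and 41.7 CPM (D803) in deletion striatum, against 20.6 CPM (W816), 29.7 CPM and 66.4 CPM (W807) in wild-type striatum. D803, W807 and W808 were high and D804 was low for several of these genes, and the groups overlapped. The striatum libraries richest in ependymal genes were therefore other ones than the choroid plexus extremes W813 and W816, and W816 was the lowest wild-type library for Rarres2 and for Tmem212 (4.83 CPM).

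In cortex Foxj1 had 4.13 CPM (D810), 5.51 CPM (median) and 9.58 CPM (D802) in deletion mice, against 1.62 CPM (W808), 4.97 CPM and 11.5 CPM (W813) in wild-type mice. Cortical Rarres2 had 4.38 CPM (D811), 6.93 CPM and 14.6 CPM (D804) in deletion mice, against 4.36 CPM (W816), 7.05 CPM and 13.7 CPM (W813) in wild-type mice. Cortical Ccdc153 medians were 2.55 CPM in deletion and 1.54 CPM in wild-type mice. In each case the deletion libraries lay within or near the wild-type range. In cerebellum Foxj1 had 6.38 CPM (D803), 11.1 CPM and 23.9 CPM (D809) in deletion mice, against 1.05 CPM (W806), 7.73 CPM and 28.8 CPM (W813) in wild-type mice. Cerebellar Ccdc153 had 2.26 CPM (D802), 4.44 CPM and 8.07 CPM (D804) in deletion mice, against 0.0639 CPM (W806), 2.17 CPM and 7.94 CPM (W813) in wild-type mice. Cerebellar Rarres2 medians were 13.8 CPM in deletion and 14.4 CPM in wild-type mice. W806 was the lowest cerebellum for Foxj1 and Ccdc153, as it was for the choroid plexus sum.

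Among the meningeal genes, Ptgds, which encodes a prostaglandin D synthase that is also made by choroid plexus and oligodendrocytes, had the highest level per kilobase, with a mean of 1038 CPM per kb in cerebellum, 649 in cortex and 291 in striatum. In striatum it had 179 CPM (D801), 375 CPM (median) and 722 CPM (D804) in deletion mice, against 248 CPM (W806), 392 CPM and 1523 CPM (W807) in wild-type mice. In cortex it had 361 CPM (D801), 1024 CPM and 1783 CPM (D804) in deletion mice, against 579 CPM (W805), 934 CPM and 2284 CPM (W813) in wild-type mice. In cerebellum it had 617 CPM (D801), 1375 CPM and 3532 CPM (D809) in deletion mice, against 691 CPM (W816), 1396 CPM and 4286 CPM (W808) in wild-type mice. The medians of the genotypes were close in all 3 tissues, and D801 was the lowest library of the deletion group in each.

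The matrix genes of the meninges were led by Col1a2, a fibrillar collagen chain, the proteoglycan gene Dcn and Fmod, which encodes fibromodulin. In striatum Col1a2 had 8.35 CPM (D811), 11.3 CPM (median) and 16.7 CPM (D810) in deletion mice, against 8.95 CPM (W814), 15.2 CPM and 25.4 CPM (W816) in wild-type mice. Dcn had 5.30 CPM (D803), 7.44 CPM and 12.5 CPM (D812) in deletion striatum, against 5.18 CPM (W806), 8.26 CPM and 17.2 CPM (W807) in wild-type striatum. Fmod had 2.17 CPM (D812), 3.01 CPM and 3.79 CPM (D811) in deletion striatum, against 2.19 CPM (W814), 3.75 CPM, 13.3 CPM (W815) and 18.8 CPM (W807) in wild-type striatum. Striatal Fmod was high in W807 and W815, while the lowest wild-type libraries lay among the deletion libraries. Of the 10 meningeal genes, 7 had their highest striatum level in W807.

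In cortex Col1a2 had 8.67 CPM (D811), 16.4 CPM (median) and 36.7 CPM (D812) in deletion mice, against 9.04 CPM (W808), 13.0 CPM and 28.3 CPM (W813) in wild-type mice. Cortical Dcn had 6.28 CPM (D811), 17.6 CPM and 70.8 CPM (D812) in deletion mice, against 5.47 CPM (W815), 10.4 CPM and 38.6 CPM (W813) in wild-type mice. Cortical Fmod had 6.71 CPM (D811), 18.0 CPM and 42.0 CPM (D812) in deletion mice, against 12.0 CPM (W805), 18.3 CPM and 36.9 CPM (W813) in wild-type mice. D812 was the highest cortex library for 8 of the 10 meningeal genes and W813 for the other 2, and D811 was the lowest deletion library for all of the matrix genes just named. In cerebellum W808 was highest for 9 of 10, Lum, another small proteoglycan gene, being the exception (W813). The cerebellar medians were 37.2 CPM in deletion and 41.7 CPM in wild-type mice for Col1a2, 29.7 CPM in deletion and 25.5 CPM in wild-type mice for Dcn, and 20.3 CPM in deletion and 24.6 CPM in wild-type mice for Fmod.

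The 3 tissues were then compared across all 48 libraries in 1 fit with genotype and sex, in which a gene was called at a Benjamini-Hochberg adjusted p under 0.05 over the 18531 genes tested (edgeR quasi-likelihood test). In striatum against cortex, 12 of the 36 genes were lower and 9 were higher, beside 16.3% of all genes called lower and 17.9% called higher. The ependymal genes were higher in striatum in 5 of 5 cases. Tmem212 differed by 3.25 ± 0.45 on the log2 scale (SE), Ccdc153 by 2.88 ± 0.40, Rarres2 by 1.98 ± 0.21 and Foxj1 by 1.94 ± 0.27, with adjusted p at most 1.63e-06 for any of the 5. The meningeal genes were lower in striatum in 9 of 10 cases, Col1a2 being the exception at -0.27 ± 0.16. Slc22a6, an organic anion transporter gene, fell by 2.34 and Fmod by 2.22. The shared genes Igfbp2 (-1.46 ± 0.32), Slc13a4 (-1.37 ± 0.29) and Igf2 (-0.68 ± 0.24) were lower in striatum as well.

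Choroid plexus genes split between these tissues. Prlr (2.83 ± 0.62), Otx2 (2.55 ± 0.48), Clic6 (1.76 ± 0.40) and Calml4, a calmodulin-like gene (1.48 ± 0.56), were higher in striatum than in cortex, and the other 14 were not called. With the animal as a block, the counts over all 36 genes were 13 lower and 9 higher, beside 20.8% and 23.5% of all genes, and Kcnj13 was called lower (-1.63, adjusted p = 0.0466). Without the striatum libraries of W813 and W816, the counts were 18 lower and 8 higher, beside 16.2% of all genes in each direction. The newly called genes were Ttr, Aqp1, Kcne2, Slc4a5, Kcnj13 and Tmem72, all lower in striatum, and Calml4 was no longer called. Without all 3 libraries of W813 and the striatum library of W816 the counts were 11 and 9, beside 15.5% and 16.9%, and of those 6 genes Kcnj13 was called. Without the 6 striata with more thalamic than striatal markers they were 11 and 8, beside 14.4% and 14.3%. Igf2 and Calml4 were then not called. The 5 ependymal genes were called higher and 7 or more meningeal genes lower in each of these fits. Ttr differed by -2.31 ± 1.06 with all libraries (adjusted p = 0.0898), by -4.35 without the striata of W813 and W816, by -1.80 without all of W813 and that striatum, and by -0.66 ± 1.18 with the animal as a block (adjusted p = 0.680). DESeq2 with all libraries, its replacement and filter of outlier counts turned off, called Ttr lower (adjusted p = 0.0216).

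In cerebellum against cortex, 31 of the 36 genes were higher and 0 were lower, beside 32.0% of all genes called higher and 29.2% called lower. All 18 choroid plexus genes were higher in cerebellum, with a median difference of 2.09 on the log2 scale. Otx2 differed by 3.88 ± 0.50, Slc4a5 by 3.27 ± 0.78 and Ttr by 2.71 ± 1.03. The ependymal genes were higher in 4 of 5 cases (median 0.99) and the meningeal genes in 7 of 10 (median 0.68), led by Col1a2 at 1.24 ± 0.16. Not called were Igfbp2, Ccdc153, Dcn, Slc22a6 and Fmod. With the animal as a block, Dcn was called (adjusted p = 0.00233) and Tmem212 was not (adjusted p = 0.131), with 31 higher genes beside 36.0% of all genes higher and 32.3% lower. Without all 3 libraries of W813 and the striatum library of W816, 32 genes were higher, beside 31.7% of all genes higher and 29.6% lower. Without the 6 striata with more thalamic than striatal markers 30 were higher, beside 32.1% higher and 29.1% lower.

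In striatum against cerebellum, 26 genes were lower and 5 were higher, beside 30.0% and 30.5% of all genes. The 5 higher genes were the 5 ependymal genes, with Tmem212 at 2.26 ± 0.43 and Ccdc153 at 2.03 ± 0.39. All 10 meningeal genes (median -1.81) and all 3 shared genes were lower in striatum, as were 13 choroid plexus genes, among them Kcnj13 (-3.77 ± 0.74). Clic6, Prlr, Sostdc1, Calml4 and Col8a1 were not called. With the animal as a block Prlr was a sixth higher gene (1.60, adjusted p = 0.0108), and the counts of 26 and 6 stood beside 33.6% and 33.7% of all genes. The counts were 28 lower and 5 higher without the striata of W813 and W816, beside 30.4% and 29.3%. They were 27 and 5 without all of W813 and the striatum of W816, beside 29.2% and 30.2%. Without the 6 striata with more thalamic than striatal markers they were 21 and 5, beside 28.3% and 27.8%. Kl, Otx2, Cldn2, F5 and Tmem72 were then no longer called. Levels of the 5 ependymal genes were thus highest in striatum, whereas meningeal levels were lowest there. The ependymal genes were lowest in cortex, but cortex and cerebellum were not called apart for Ccdc153. With the animal as a block they were not called apart for Tmem212 either. The shares of all genes called were also high in these contrasts, so the counts are read beside them, and the amount of each border tissue in a block and its expression within that tissue cannot be told apart.

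**Figure D4:**
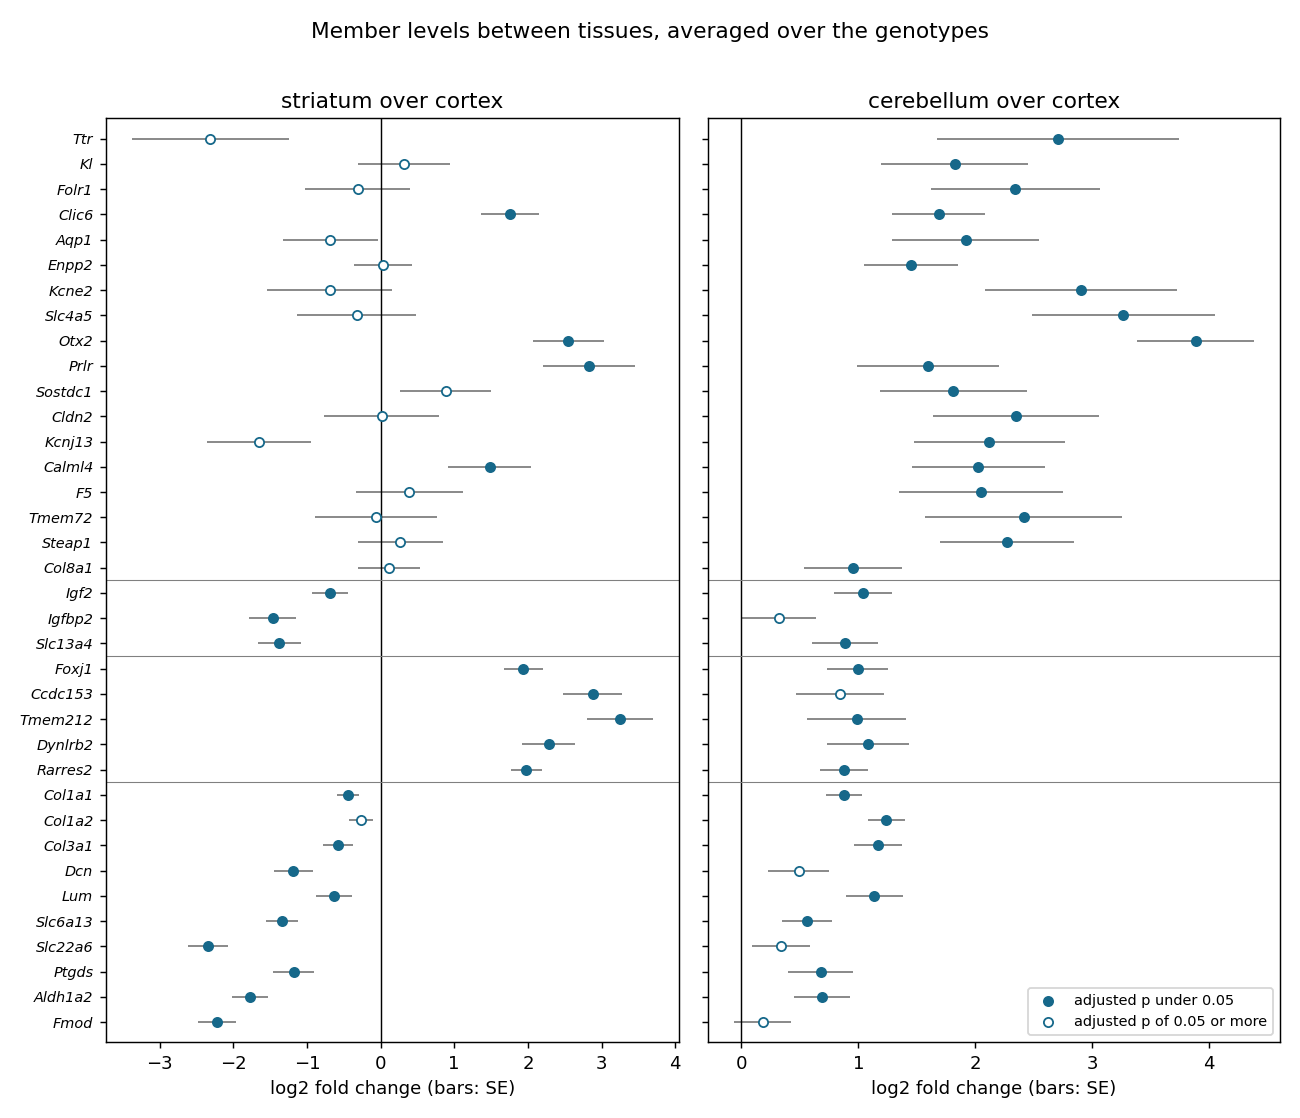
Log2 fold change (bars: SE) of striatum over cortex and of cerebellum over cortex for each of the 36 genes by gene group, with filled points for adjusted p under 0.05. The 5 ependymal genes lie above 0 in striatum over cortex and the meningeal genes below 0, and all 18 choroid plexus genes lie above 0 in cerebellum over cortex.

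Further genes of the same 3 systems, taken from textbook markers, were counted in the same contrasts. These lists were also chosen with earlier results of these data known, so they are not an independent check. Of 24 other cilium genes tested in striatum against cortex, 22 were higher (median 1.95 on the log2 scale), beside 17.9% of all genes. Of 20 other meningeal genes, 16 were lower (median -1.01), beside 16.3% of all genes, and of 19 other choroid plexus genes 4 were higher and 1 was lower. In cerebellum against cortex, 14 of the other choroid plexus genes were higher and 1 was lower, the cilium genes split into 7 higher and 5 lower, and 11 of the meningeal genes were higher and 1 lower, beside 32.0% of all genes higher and 29.2% lower. The split of the cilium genes is near these shares. In striatum against cerebellum, 21 cilium genes were higher and 1 was lower, and 18 meningeal genes were lower, beside 30.5% of all genes higher and 30.0% lower. Among the most abundant of these genes, Htr2c, a serotonin receptor gene that choroid plexus shares with neurons, had medians of 77.0 CPM in deletion and 67.0 CPM in wild-type striatum, against 34.4 CPM in deletion and 23.5 CPM in wild-type cortex.

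Deletion and wild-type mice were compared within each tissue with sex in the model (edgeR quasi-likelihood test, adjusted over all genes tested in that tissue). In cortex, 32 of the 36 genes passed the filter on low counts (not Kcne2, Otx2, Slc4a5 and Steap1) and 0 were called lower or higher, beside 0.119% of all genes called lower and 0.0119% called higher. At an unadjusted p under 0.05 the members called were also 0, beside 1.26% of all genes lower and 0.776% higher, and DESeq2 called 0. Of the 32 log2 differences (deletion minus wild type) 16 were negative and their median was -0.01, with 0.00 for all genes. Choroid plexus genes were negative in 13 of 14 cases with a median of -0.89, and meningeal genes in 0 of 10 with a median of 0.15. Ttr differed by -2.63 ± 3.66. Without W813, the highest cortex library for all 18 choroid plexus genes, 2 of 32 differences were negative and the median was 0.38. An upward shift follows in part from leaving out the highest library. Without D812, the highest for 8 of the 10 meningeal genes, 25 of 33 were negative and the median was -0.25. The signs in cortex thus depended on single libraries.

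Striatum was the tissue in which the genes leaned 1 way. The genes are not independent of each other, because many rose together in the same animals. W816 was the highest striatum library for all 18 choroid plexus and all 3 shared genes, and W807 for 7 of 10 meningeal genes. The counts of genes here and below are a description, and enrichment was not tested. The filter passed 34 genes (not Kcnj13 and Slc4a5). All 34 were lower in deletion than in wild-type mice in sign, with a median log2 difference of -0.86 against -0.01 for all genes. However, 0 of the 34 were called, beside 0.116% of all genes called lower and 0.0116% called higher. At an unadjusted p under 0.05 there were 15 lower genes, beside 1.79% of all genes lower and 1.53% higher. They comprised 10 of 16 choroid plexus genes, 2 of 3 shared genes, 0 of 5 ependymal genes and 3 of 10 meningeal genes (Lum, Slc22a6 and Fmod). Slc13a4 had the smallest p, with an adjusted p of 0.464, followed by Aqp1 with 0.711. DESeq2 called these 2 genes, Slc13a4 at -1.79 (adjusted p = 0.0120) and Aqp1 at -2.54 (adjusted p = 0.0168), beside 0.186% of all genes lower and 0.0581% higher with that tool. It was run with its replacement and filter of outlier counts turned off, so single high libraries kept their full weight. Striatal Aqp1 had 1079 counts in W816 and 225 in W813, and the next highest library, D812, had 43.

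The sizes differed between the gene groups. The median log2 difference was -1.55 over the choroid plexus genes, -0.87 over the shared genes, -0.32 over the ependymal genes and -0.43 over the meningeal genes. Kcne2 had -3.05 ± 1.15, Folr1 -2.25 ± 0.73, Kl -1.69 ± 0.87 and Enpp2 -1.22 ± 0.52. Clic6 (-0.30 ± 0.34), Prlr (-0.43 ± 0.58) and Otx2 (-0.19 ± 0.40) had differences smaller than their SE. The differences were also small for Foxj1 (-0.30 ± 0.26), Ccdc153 (-0.25 ± 0.43) and Rarres2 (-0.32 ± 0.27) of the ependyma and for Ptgds (-0.35 ± 0.36) and Dcn (-0.26 ± 0.26) of the meninges. Fmod had -1.16 ± 0.41, Slc22a6 -1.36 ± 0.45 and Lum -0.87 ± 0.39.

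The fits that follow leave out wild-type libraries chosen for their high values of these same genes, so that a shift towards 0 follows in part from the choice. Without W813 and W816, 27 of 34 genes were negative with a median of -0.31, and 0 were called beside 0.086% of all genes lower and 0.0115% higher. The choroid plexus genes were then negative in 9 of 16 cases with a median of -0.08, Ttr differed by -0.99 ± 0.65 and Enpp2 by -0.24 ± 0.14. The genes with an unadjusted p under 0.05 were Aqp1 (-0.84 ± 0.28), Slc13a4 (-1.27 ± 0.35), Slc22a6 (-1.60 ± 0.47) and Fmod (-1.31 ± 0.45), 4 in all, beside 1.55% of all genes lower and 1.47% higher. The meningeal genes still had a negative difference in 10 of 10 cases with a median of -0.46. Without W807 and W815, which were high in meningeal genes, they were negative in 5 of 10 cases with a median of -0.03, Fmod differed by -0.28 ± 0.22 and Slc22a6 by -0.40 ± 0.26. Without all 4 libraries, 24 of 35 genes were negative with a median of -0.20, and Ttr (-1.51 ± 0.60) and Aqp1 (-0.82 ± 0.33) had an unadjusted p under 0.05, beside 1.23% of all genes lower and 1.35% higher.

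**Figure D5:**
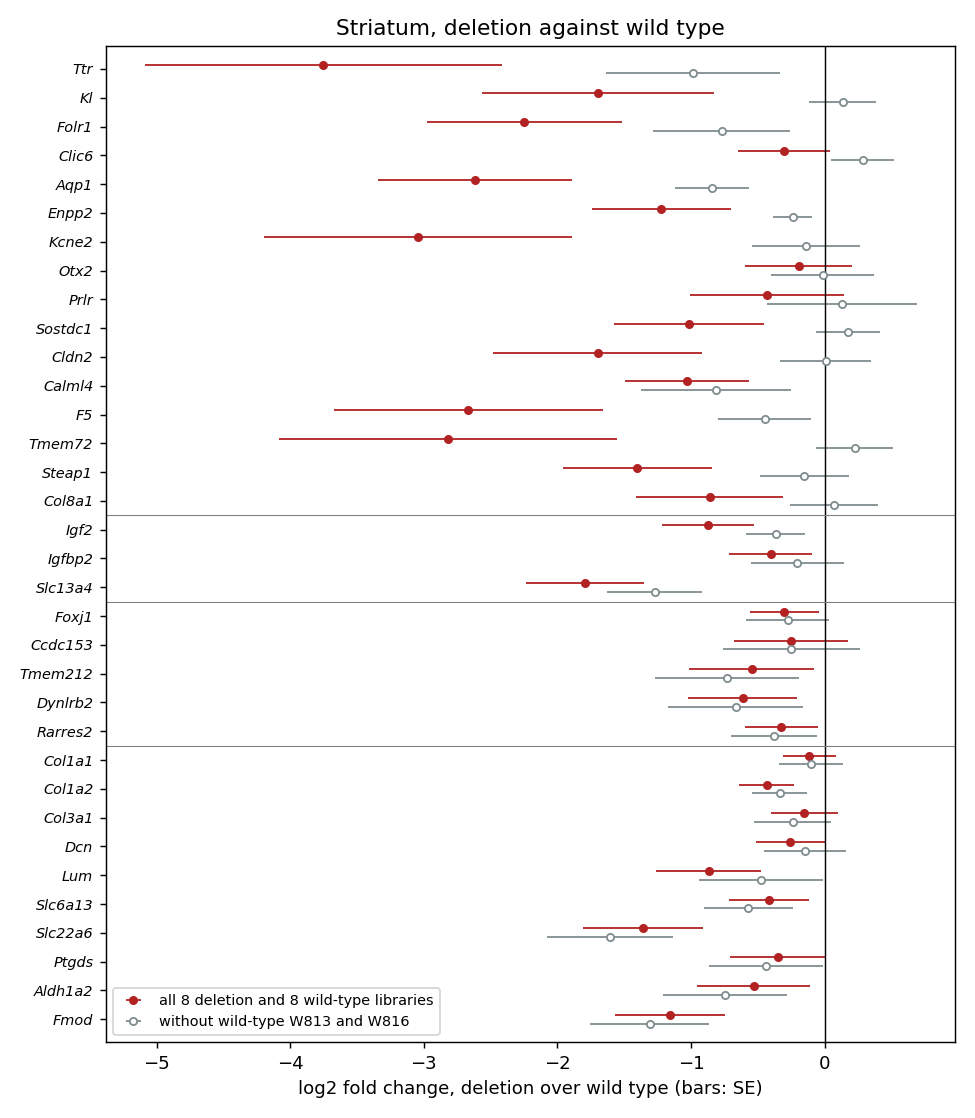
Log2 difference in striatum (deletion minus wild type, with SE) for each gene tested, from all 16 libraries (filled) and without W813 and W816 (open). With all libraries the 34 genes lie below 0, and the choroid plexus genes move towards 0 (median from all libraries -1.55, without W813 and W816 -0.08).

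The striatal blocks that held more thalamic than striatal neuron markers were D804, D810, W805, W807, W813 and W815, of which 2 were from deletion and 4 from wild-type mice. The rule compares sums within a library and does not select for high thalamic levels. D810 had a thalamic sum of 1341 CPM, but W813 had 394 CPM. D804 was nearly tied (733.12 CPM striatal, 733.2 CPM thalamic), and D811, with a thalamic sum of 1160 CPM, was not among them. The median sum of the thalamic markers was 790 CPM in deletion and 673 CPM in wild-type striatum, and that of the striatal markers 1563 CPM in deletion and 1164 CPM in wild-type striatum. Without these 6 libraries, 31 of 35 genes were negative with a median of -0.62, and 12 had an unadjusted p under 0.05, beside 1.13% of all genes lower and 0.574% higher. The part of the dissection in the striatal differences was not tested. In males alone 13 of 16 choroid plexus genes were negative with a median of -0.20, and in females alone 18 of 18 with a median of -3.13, the sex that holds W813 and W816.

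In cerebellum, all 36 genes were tested and 0 were called, beside 0.126% of all genes called lower and 0.012% called higher. At an unadjusted p under 0.05 there were also 0, beside 1.22% lower and 0.858% higher, and DESeq2 called 0. The sign was negative for 22 of 36 with a median of -0.04, and Ttr differed by -0.36 ± 1.19. Choroid plexus genes were negative in 11 of 18 cases (median -0.03), ependymal genes in 0 of 5 (median 0.31) and meningeal genes in 8 of 10 (median -0.14). Without W813, the highest cerebellum for 17 of 18 choroid plexus genes, 5 of 36 were negative and the median was 0.81. That shift follows in part from leaving out the highest library.

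Whether the genotype difference depended on sex or tissue was tested directly. The interaction of genotype with sex called 0 genes in any tissue, beside 0.0% of all genes. In cortex 8 of the 32 genes tested, 7 of the choroid plexus and Foxj1, had an unadjusted p under 0.05. All 8 had a more positive difference in males, beside 1.07% of all genes higher and 0.45% lower. For Ttr this interaction was 9.25 ± 2.95 (edgeR quasi-likelihood test, unadjusted p = 0.00696, adjusted p = 0.9996). The deletion cortex libraries richest in Ttr, D801 and D802, were males and the richest wild-type one, W813, was a female. In striatum 8 choroid plexus genes were higher and Dynlrb2 and Rarres2 lower at that p, beside 0.616% and 0.483% of all genes. In cerebellum there were 0, beside 0.318% lower and 0.24% higher.

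The genotype difference was more negative in striatum than in cortex for 33 of 36 genes and more negative than in cerebellum for all 36. In neither contrast was any gene called (edgeR and DESeq2, 0 each, beside 0.0% of all genes). With the animal as a block 0 members were called as well, beside 0 of all 18531 genes. The signs and unadjusted p in this paragraph come from fits without that block, which treat the tissues of 1 animal as independent. At an unadjusted p under 0.05 8 genes were more negative against cortex, beside 1.1% of all genes lower and 0.75% higher, and 8 against cerebellum, beside 1.15% lower and 0.54% higher. DESeq2 gave 9, beside 1.25% lower and 0.966% higher, and 10, beside 1.39% lower and 0.648% higher. Without the striatum libraries of W813 and W816 the contrast with cortex had 18 of 36 negative and 4 genes at that p, beside 0.676% of all genes lower and 0.633% higher, and the contrast with cerebellum had 28 of 36 negative and 1 gene, beside 0.947% lower and 0.452% higher. Between cerebellum and cortex, 12 of 36 differences were negative and 0 genes had an unadjusted p under 0.05, beside 0.469% of all genes lower and 0.793% higher.

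The additional genes, which are not an independent check, gave a similar picture between genotypes. In striatum 14 of 15 other choroid plexus genes (median -0.52), 24 of 24 other cilium genes (median -0.43) and 15 of 17 other meningeal genes (median -0.30) were negative in sign, and 0 were called in any tissue. At an unadjusted p under 0.05 there were 3, 1 and 2 of them lower in striatum, beside 1.79% of all genes lower and 1.53% higher. Without W813 and W816 there were 0, 0 and 2, beside 1.55% and 1.47%, with 7 of 15 choroid plexus genes (median 0.06), 24 of 24 cilium genes (median -0.46) and 15 of 17 meningeal genes (median -0.30) negative. The cilium gene Drc1 had 27.9 CPM (D812), 32.6 CPM (median) and 44.1 CPM (D801) in deletion striatum, against 28.0 CPM (W813), 36.4 CPM and 53.9 CPM (W807) in wild-type striatum, a log2 difference of -0.08 ± 0.12. The meningeal gene Cemip, which encodes a hyaluronan-degrading protein, had 5.59 CPM (D809), 8.36 CPM and 13.5 CPM (D811) in deletion striatum, against 4.93 CPM (W808), 9.93 CPM and 27.8 CPM (W815) in wild-type striatum, a log2 difference of -0.53 ± 0.26. Both sets of libraries overlapped.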

How the data were processed

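RNA of 48 libraries (16 mice, 3 tissues) was prepared with a stranded TruSeq mRNA protocol and sequenced on an Illumina HiSeq instrument, per the labels' protocols. The deposited table holds raw gene counts made by the authors. FastQC 0.10.1, STAR 2.4.2a, Picard, SAMtools and the builds GRCm38 and mm8 are named, without roles, in the submitters' processing notes. No source names the counting tool, its strand setting or its annotation. The table has 47161 features, of which 92 spike-ins (0.0614% to 1.09% of counts) were left out. Of the gene identifiers 46488 matched GENCODE vM21 (GRCm38), from which symbols, exon lengths and coordinates were taken.

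Counts were analysed in R 4.3.3 with edgeR 4.0.16 (TMM normalization, filterByExpr, robust quasi-likelihood fit, limma 3.58.1 loaded), with sex and genotype as terms in each tissue, and 1 fit over the 48 libraries for contrasts between tissues. CPM use TMM over all libraries, and log2 CPM a prior count of 2. Adjusted p-values are Benjamini-Hochberg over all genes tested, called under 0.05. Summaries and figures used Python 3.11.15, pandas 2.3.3 and matplotlib 3.10.9. The procedure was tested on simulated data. Alternatives were RLE scaling, no filter, no sex term, single sexes, DESeq2 1.42.0, all 48 libraries, leaving out animals and an animal block. DESeq2 was run with its replacement and filter of outlier counts turned off. The members and lists were chosen with earlier results of these data known. Named with per-library values were the genes of highest mean CPM in each group (6 choroid plexus, 3 shared, 3 ependymal and 4 meningeal) and, from each other list, the top 3 served as examples. Further genes were named after their values were seen. Mice are separate animals per the labels, and no libraries agreed within sampling noise (smallest chi-square per gene 17.9).

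The same animals gave all 3 tissues, per the labels. Deviations from group means correlated within animals with a median of 0.373 between striatum and cortex (over 0.1 in 16 of 16), 0.434 between cerebellum and cortex (15 of 16) and 0.239 between striatum and cerebellum (11 of 16). Genotype is a property of the animal, so the block applies only to contrasts between tissues.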

Additional observations from a re-analysis of the deposited data

Results flagged for a closer look

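In 120 groups of 8 libraries (each named gene and each summed gene group, by tissue and genotype), the gap between the highest or lowest library and its neighbour was divided by the range of log2 CPM. In 13 groups the quotient passed Dixon's critical value for 8 values, which chance passes in about 1 of 20 groups. In cortex wild-type mice W813 stood apart as the highest library for the choroid plexus sum (0.659), the sum of the shared genes (0.779), the meningeal sum (0.527), Enpp2 (0.719), Igf2 (0.639) and Slc13a4 (0.56). In striatum wild-type mice W816 stood apart as the highest for the sum of the shared genes (0.529), Enpp2 (0.604) and Clic6 (0.607). In cerebellum the libraries that stood apart were low ones. D802 was lowest for Ttr (0.567) and D803 for Igf2 (0.583) and Dcn (0.644) among deletion mice, and W806 was lowest for Ccdc153 (0.571) among wild-type mice. Wild-type striatum Ttr was not among the 13, since W813 and W816 were high together.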

How the results depend on the processing

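Deletion against wild type kept 0 called members in cortex and cerebellum under every alternative run. In striatum DESeq2 called 2 members and the edgeR fit over all 48 libraries 1 (Slc13a4, -1.84, adjusted p = 0.0405), against 0. Of all 18531 genes in that edgeR fit 32 were called lower and 4 higher, and it treats the 3 libraries of an animal as independent. Signs of the 16 named genes were unstable: 8 of 16 in striatum, 15 of 15 in cortex and 12 of 16 in cerebellum changed sign under at least 1 setting. Positive log2 differences in striatum, against negative ones with all libraries, were as follows. Without W813 and W816 they were 0.28 for Clic6, 0.13 for Kl and 0.13 for Prlr. Without W807, W813, W815 and W816 they were 0.21 for Clic6, 0.11 for Kl, 0.22 for Prlr, 0.086 for Ptgds and 0.097 for Dcn. Without W807 and W815 Ptgds had 0.052, and without the 6 libraries with more thalamic than striatal markers Dcn had 0.024. Males alone gave 0.13 for Kl, and females alone 0.21 for Rarres2, 0.28 for Ccdc153, 0.011 for Ptgds and 0.068 for Dcn. Ttr in cortex had 1.97 in males alone. Leaving out 1 library at a time gave -4.55 to 0.50 for Ttr in cortex and -1.05 to 1.43 for Ttr in cerebellum (positive without W813), and in striatum -0.43 to 0.24 for Clic6, -0.78 to 0.22 for Prlr and -0.38 to 0.14 for Otx2 (positive without W816), and -0.49 to 0.0059 for Ptgds (positive without W807). The cause was not tested. All exclusions of chosen libraries were made with the data seen, that of the striata of W813 and W816 for their high values of these same genes. With the replicate block the counts of lower and higher members were 13 and 9 (striatum against cortex), 0 and 31 (cerebellum against cortex) and 26 and 6 (striatum against cerebellum), and no other count moved by over 1.5 times. A replicate block could not be fitted to deletion against wild type. Leaving out 1 library, the striatal median log2 difference lay between -0.96 and -0.51. In these fits 9 to 17 of the 34 or 35 members tested were lower at an unadjusted p under 0.05. Of all genes (17287 to 17340 tested), 226 to 391 were lower and 198 to 481 higher at that p.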
